A study of Mus musculus with 2 samples.

Results

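The distal microRNA cluster of the imprinted Dlk1-Dio3 domain runs from Mir379 to Mir410 and a little beyond, and is known by its host transcript Mirg. Its members here were all microRNA genes that the GENCODE M21 annotation places on the plus strand of mouse chromosome 12 (mm10) with a start between 109.7 and 109.75 Mb. The rule gave 39 of the 2202 microRNA genes in the count tables, over 38.9 kb (chr12:109709060-109747960). Mir3072 lies 4082 bases past Mir410 and is the last of them. The RNA was taken from cortex on the left side of the brain in 2 B6CASTF1/J females aged 36 days. These make up 1 group, with no treatment and no second tissue in the labels, so no conditions were compared. The labels number the animals separately under a single donor code, and each gave 1 small RNA library. Mouse 1 had 1930234 counts on the sense strand of microRNA genes, and mouse 2 had 1863876.

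The Dlk1-Dio3 domain is imprinted: its protein-coding genes are active on the paternal chromosome, and its long non-coding RNAs, small nucleolar RNAs and microRNAs come from the maternal one. The distal microRNAs are cut as hairpins from a long transcript that is read in brain and embryo, and each hairpin is then cut to a duplex whose arms can guide silencing of messenger RNAs through the seed, bases 2 to 8. In neurons the transcript is known to be induced by activity through the factor Mef2, and mice that lack the cluster are known for altered anxiety-related and social behaviour. By the naming convention for hybrid mice the mother's strain stands first, which is C57BL/6J in B6CASTF1/J, the strain that mm10 represents. The tables hold no allele counts, and imprinting was not tested.

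The 5 leading genes of the cluster were the same in both mice: Mir487b, Mir411, Mir382, Mir379 and Mir541. Their mature sequences are shown because they and Mir369 made up most of the cluster's counts. They are RNA, 5′ to 3′, taken from RefSeq (GRCm38.p6) for the genes that the tables count, with the seed in capitals. The counts are per hairpin gene, so the arms of a hairpin are not told apart. For Mir487b that source gave miR-487b-5p alone, so its other arm is missing from the list.
miR-487b-5p: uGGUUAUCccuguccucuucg
miR-411-5p: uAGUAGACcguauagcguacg
miR-411-3p: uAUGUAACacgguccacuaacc
miR-382-5p: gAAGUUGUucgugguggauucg
miR-382-3p: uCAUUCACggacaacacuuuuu
miR-379-5p: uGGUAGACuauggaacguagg
miR-379-3p: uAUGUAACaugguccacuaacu
miR-541-5p: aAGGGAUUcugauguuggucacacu
miR-541-3p: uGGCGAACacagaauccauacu
miR-369-5p: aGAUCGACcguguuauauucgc
miR-369-3p: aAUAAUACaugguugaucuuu

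Of 38 members with a mature sequence in that table (71 sequences, 65 different seeds), 11 had a seed in common with another member, in 6 pairs. Only a single arm is listed there for Mir376c, Mir487b, Mir539, Mir485 and Mir453, so further shared seeds could be missed. The pairs are printed because a shared seed is what would let hairpins of the cluster act on the same messages.
miR-379-5p: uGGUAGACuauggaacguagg
miR-1193-5p: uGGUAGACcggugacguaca
miR-376c-5p: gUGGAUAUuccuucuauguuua
miR-376b-5p: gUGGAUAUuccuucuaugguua
miR-453: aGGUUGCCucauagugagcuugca
miR-496a-5p: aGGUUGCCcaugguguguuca
miR-494-5p: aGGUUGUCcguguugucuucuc
miR-410-5p: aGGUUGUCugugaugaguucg
miR-1197-5p: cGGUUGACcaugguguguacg
miR-758-5p: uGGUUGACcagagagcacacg
The remaining pair is that of miR-379-3p and miR-411-3p, whose seed AUGUAAC is capitalised in the sequences of the leading genes. It joined abundant genes on both sides: the summed level of Mir379 and Mir411 was 12321 CPM in mouse 1 and 18833 in mouse 2. These sums, like those of other pairs, are of whole hairpin genes, so the level of the arms with the shared seed is not known. CPM (counts per 1000000) is the share of a library's sense counts that a gene holds, scaled to that total, and all levels use it. The other pairs joined genes of unequal level, such as Mir379 with Mir1193, or genes that were all low. Mir1197 and Mir758 together had 4.66 and 7.51 CPM. In the same way, 11 seeds of the cluster also occur in a microRNA outside it, among them that of miR-410-3p in the miR-344d and miR-344e genes and that of miR-329-3p in miR-362-3p. The seed of miR-299a-3p is among them only through miR-299b-3p, whose gene lies opposite Mir299a at the same place. How often seeds are shared among all microRNA genes was not counted.

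As a check of the tissue label, 10 of 14 marker genes of neurons reached 10 CPM in both mice. Mir124a-1, Mir124a-2, Mir124a-3 and Mir9-2 did not. Reads that map to several places are tallied apart from the genes, and made up 34.6% of all reads in mouse 1 and 37.2% in mouse 2. How many of them belong to marker genes was not tested. A low or 0 count of a marker gene therefore does not show that its microRNA was low in this tissue. All 14 together held 19.1% and 18.7% of counts, most of it in Mir139 (112269 CPM on average) and Mir132 (47377 CPM). The liver marker Mir122 held 0.00456% and 0.00402%. Markers of vessel and mural cells (3 of 3 at that level) took up 1.59% of the mouse 1 library and 3.18% of that of mouse 2, and those of oligodendrocytes (2 of 3) held 0.276% and 0.513%. Leukocyte markers (2 of 3) held 0.158% and 0.141%, erythroid markers (3 of 3) 0.0742% and 0.0153%, and the 2 markers of pituitary and pancreas 0.0331% and 0.0228%. Of 5 muscle markers 1 was at that level, Mir1a-1, Mir133a-1 and Mir133a-2 were at 0, and the list held 0.00383% and 0.00258%. The part of cell makeup in any value of the cluster was not tested. In tissue RNA, fewer cells of a type and less RNA per cell cannot be told apart.

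The cluster as a whole held 6.15% ± 1.26 (SD, n = 2 mice) of all sense counts. It had 101494 counts in mouse 1, or 5.26% (exact binomial 95% interval 5.227 to 5.290), and 131107 in mouse 2, or 7.03% (6.997 to 7.071). The intervals and all limits given for counts of 0 cover counting error only, since no molecular identifiers were named and PCR copies count as reads. Mir487b and Mir411 made up most of that difference in counts. Without Mir487b the cluster held 4.73% and 5.73%, and without Mir487b and Mir411 it held 4.13% and 4.65%. Of the counts outside the 10 most abundant genes, none of which is a member, the cluster held 13.0% on average.

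Detection was common in the cluster. Counting as detected any gene with at least 10 CPM in each mouse, 33 of the 39 members were detected, beside 13.8% of all 2202 genes, many of which have no counts. In both mice 27 members reached 100 CPM and 11 reached 1000 CPM. On average 13 members stood at 1000 CPM or more, 16 between 100 and 1000 CPM and 4 between 10 and 100 CPM. The leading 4 genes held 52.3% ± 5.68 of the cluster's counts and the leading 8 held 77.5% ± 0.702. Of the 2202 genes, 13 of the 100 most abundant were members.

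**Figure D1:**
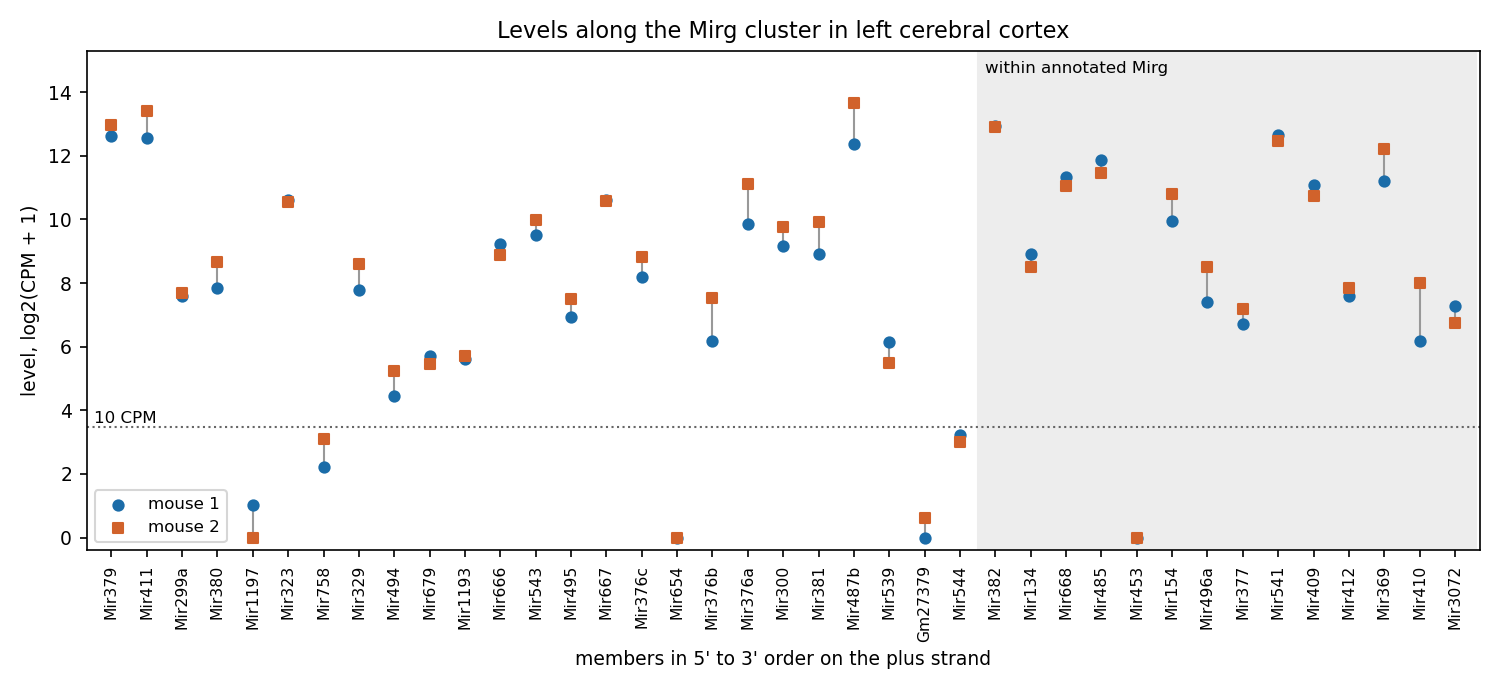
Level of each of the 39 members as log2(CPM + 1), in order along the plus strand, with mouse 1 as circles and mouse 2 as squares joined by a line for each gene and a grey band over members within annotated Mirg. Levels step up and down along the cluster, and all members after Mir453 average over 100 CPM. In both mice 6 members lie under the dotted line at 10 CPM.

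Mir487b (chr12:109727333-109727414) was the highest on average at 9162 ± 5516 CPM, with 10156 counts (5262 CPM) in mouse 1 and 24346 counts (13062 CPM) in mouse 2. It was first in mouse 2 but stood at rank 5 of the cluster in mouse 1. Mir411 (chr12:109710175-109710256) had 11566 counts (5992 CPM) and 20151 counts (10811 CPM). Mir382 (chr12:109733771-109733846) differed little, with 15020 counts (7781 CPM) and 14331 counts (7689 CPM), and was the highest member in mouse 1. Mir379 (chr12:109709060-109709125), the hairpin nearest the 5′ end, had 12217 counts (6329 CPM) and 14951 counts (8021 CPM). Mir541 (chr12:109742409-109742498) had 12504 counts (6478 CPM) and 10603 counts (5689 CPM). The ranges of these 5 genes over the mice overlapped from each to the next in order of level, so their order is not settled by 2 mice. Mir541 lay above Mir369, the sixth, in both mice without overlap.

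The next group held several genes with known neuronal roles. Mir369 (chr12:109743418-109743496), whose microRNA is known to target N-cadherin in the developing cortex, had 4534 counts (2349 CPM) in mouse 1 and 8773 counts (4707 CPM) in mouse 2. Mir485 (chr12:109734902-109734974), known as a regulator of synapse number and of the vesicle protein SV2A, had 7238 counts (3749.8 CPM) and 5191 counts (2785 CPM). Mir668 (chr12:109734732-109734797) had 4931 counts (2555 CPM) and 3929 counts (2108 CPM). Mir485 and Mir668 were both higher in mouse 1, while Mir369 was higher in mouse 2. Mir409 (chr12:109743158-109743236) had 4219 counts (2186 CPM) and 3189 counts (1711 CPM). Mir376a (chr12:109723781-109723848), of a family known for A-to-I editing of its hairpins in brain, had 1770 counts (917 CPM) and 4153 counts (2228 CPM). Edited reads were not analysed here. Mir667, Mir323 and Mir154 followed with mean levels of 1537 ± 23.5, 1525 ± 58.8 and 1384 ± 549 CPM. Mir667 had 2999 counts (1554 CPM) and 2834 (1520.5 CPM), and Mir323 had 3024 (1567 CPM) and 2765 (1483 CPM), so both hardly differed. Mir154 had 1922 counts (996 CPM) and 3303 (1772 CPM).

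Mir134 is the best studied member, known to be carried to dendrites and to hold back spine growth by repressing Limk1, and was of middle level. It had 923 counts (478 CPM) in mouse 1 and 667 counts (358 CPM) in mouse 2 and stood 18th in the cluster. Of the other genes known to target N-cadherin, Mir543 had 1393 counts (722 CPM) and 1887 counts (1012 CPM), and Mir496a had 324 counts (168 CPM) and 667 counts (358 CPM). All 3, Mir543, Mir496a and Mir369, were higher in mouse 2. In the miR-376 family, Mir376c had 567 counts (294 CPM) and 834 counts (447 CPM), and Mir376b had 138 counts (71.5 CPM) and 342 counts (183 CPM). Mir376a was thus 12.8-fold and 12.1-fold above its neighbour Mir376b in the mice, and this ratio moved little although both genes were more than 2-fold higher in mouse 2.

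The other members with a mean of at least 100 CPM lay between 125 and 721 CPM on average. Mir381 had 921 counts (477 CPM) in mouse 1 and 1797 counts (964 CPM) in mouse 2, and Mir300 had 1108 (574 CPM) and 1603 (860.0 CPM). Mir300 and Mir381 are alike in sequence, with 16 bases in common within their mature arms. Mir666 had 1153 counts (597 CPM) and 871 counts (467 CPM). Mir380 had 440 counts (228 CPM) and 758 (407 CPM), and Mir329 had 423 (219 CPM) and 720 (386 CPM). These 2 genes, next to each other in order of level, were both higher in mouse 2. Mir412 had 373 counts (193 CPM) and 429 (230.2 CPM), and Mir299a had 371 (192 CPM) and 385 (207 CPM). Mir410 had 138 counts (71.5 CPM) and 475 (255 CPM), and Mir495 had 235 (122 CPM) and 331 (178 CPM). Of the genes in this paragraph Mir410 differed most between the mice. Mir3072 had 295 counts (153 CPM) and 198 (106 CPM), and Mir377 had 200 (104 CPM) and 271 (145 CPM).

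Low members were found among the abundant ones, not at 1 end. Mir539 averaged 57.2 ± 18.7 CPM, Mir1193 49.8 ± 2.35, Mir679 46.6 ± 5.93 and Mir494 28.6 ± 11.1. Mir544 had 16 counts in mouse 1 and 13 in mouse 2, and Mir758 had 7 and 14. Mir1197 had 2 counts in mouse 1 and 0 in mouse 2, and Gm27379 had 0 and 1. Mir654 and Mir453 had 0 counts in both, which allows up to 3 counts, or 1.55 CPM in mouse 1 and 1.61 CPM in mouse 2. Between the highest and the lowest detected member the level differed 376-fold in mouse 1 (Mir382 over Mir494) and 358-fold in mouse 2 (Mir487b over Mir494). In order of level, 32 of the 38 pairs of genes next to each other overlapped between the mice and 6 did not.

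As a trend from end to end, position along the cluster said little of level. Across the 39 members, Spearman's rho between gene order and mean level was 0.08, and it was 0.08 in each mouse; the points share their libraries and a host transcript, so this is a description. In 3 runs of 13 genes, the median level was 303 CPM from Mir379 to Mir543, 371 CPM from Mir495 to Mir382 and 418 CPM from Mir134 to Mir3072, and the runs held 31.5% ± 1.58, 35.6% ± 4.29 and 32.9% ± 5.87 of the cluster's counts. Genes beside each other were no closer in level than any others. The median absolute difference in log2(CPM + 1) was 3.37 over the 38 neighbouring pairs and 3.43 over all 741 pairs. Of 27 neighbouring pairs with both genes at 10 CPM or more on average, 11 differed 10-fold or more and 8 differed by under 2-fold. Level also showed little relation to hairpin GC content (rho = −0.03) or hairpin length (rho = −0.23).

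The 4 hairpins from Mir409 to Mir410 show how steep these steps were. They lie in a row with gaps of 52, 49 and 218 bases, and their mean levels were 1948 CPM for Mir409, 212 CPM for Mir412, 3528 CPM for Mir369 and 163 CPM for Mir410. Mir369 was 12.2-fold above Mir412 in mouse 1 and 20.4-fold in mouse 2, and 32.9-fold and 18.5-fold above Mir410. Their RefSeq hairpins are printed with the annotated mature arms in capitals.
Mir409: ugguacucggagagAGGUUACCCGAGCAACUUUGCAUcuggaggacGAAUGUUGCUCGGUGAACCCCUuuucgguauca
Mir412: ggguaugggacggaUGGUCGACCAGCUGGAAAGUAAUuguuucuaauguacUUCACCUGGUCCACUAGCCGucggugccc
Mir369: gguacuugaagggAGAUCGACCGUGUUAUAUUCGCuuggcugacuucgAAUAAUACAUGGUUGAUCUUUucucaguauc
Mir410: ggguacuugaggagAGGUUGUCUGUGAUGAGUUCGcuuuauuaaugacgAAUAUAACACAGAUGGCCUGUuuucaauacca
Other steep steps lay between Mir381 and Mir487b, 436 bases apart, where the mean level rose from 721 to 9162 CPM, and between Mir487b and Mir539, 714 bases apart, where Mir487b was 74.7-fold and 297-fold higher. Mir485 was at least 2413-fold higher in mouse 1 and at least 1730.3-fold higher in mouse 2 than Mir453, 644 bases downstream, taking 3 counts in each library as the limit for Mir453. By contrast Mir668 and Mir485, 104 bases apart, differed 1.47-fold and 1.32-fold.

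Several letters recur in these hairpins, and they were chosen for counting after the sequences were seen. The run UACUUG, which opens the hairpin of Mir369 after its first bases, is in 10 of 39 members (25.6%) and in 2.32% of all 2202 annotated hairpins. Likewise CAGUAU is in 6 members (15.4%) against 1.54% of all, GGUAUC in 2 (5.13%) against 1.32%, and GGUUG in 12 (30.8%) against 7.27%. The search read the RNA strand alone, and hairpins differ in length. Of the members with CAGUAU, Mir411 and Mir758 hold it within a longer run that they share, as do Mir376b and Mir487b. Mir376b and Mir376c had the longest run in common, 31 bases:
shared run: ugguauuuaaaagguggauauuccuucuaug
In all, 5 members (12.8%) had a run of 20 bases in common with a hairpin at another place: Mir376b with Mir376c, Mir376b with Mir487b, and Mir411 with Mir758. Of all genes 49.4% had such a run, and of the 1174 genes whose symbol starts with Mir 22.1% did. None of these 3 runs lay wholly within a mature sequence of the RefSeq table, and the 31-base run is longer than any of those sequences. It covers most of miR-376c-5p and miR-376b-5p, which are nearly the same. The other runs also reach into mature sequences. The tables tally reads that map to several places apart from the genes, and how many of those belong to these 5 genes was not tested.

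The annotated Mirg gene (chr12:109729764-109749460) starts only after Mir544. It holds 14 members: 4 lie wholly in an exon (Mir134, Mir485, Mir377 and Mir410), 5 lie partly in an exon (Mir382, Mir668, Mir412, Mir369 and Mir3072) and 5 lie in introns (Mir453, Mir154, Mir496a, Mir541 and Mir409). The other 25 lie upstream in no annotated host gene. Members within Mirg had a median level of 901 CPM, with 13 of 14 detected. Those upstream had a median of 303 CPM, with 20 of 25 detected. The members within Mirg held 51.8% of the cluster's counts in mouse 1 and 39.7% in mouse 2, so the share of the upstream members, with Mir487b and Mir411 among them, went the other way, from 48.2% to 60.3%.

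Strand bears on 5 members. Mir299a, Mir380, Mir376a, Mir539 and Mir409 lie opposite another annotated microRNA gene, and held 6.83% and 6.53% of the cluster's sense counts. All their reads were on the plus strand, and the 5 opposite genes (Mir299b, Gm25750, Gm25252, Gm44322 and Gm24321) had 0 sense counts. No read was counted against the strand of any of the 39 members in either mouse. In the counts made without regard to strand, these 5 members had 0 counts in both mice.

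The mice ranked the members nearly alike, with Spearman's rho of 0.979 and Pearson's r of 0.985 for log2(CPM + 1) across the 39 genes, which are not independent replicates. Single genes still differed by more than counting error. With library sizes scaled by TMM (trimmed mean of M-values), the 95% counting interval of the log2 ratio of mouse 2 over mouse 1 left out 0 for 30 of the 33 members at 10 CPM or more on average. The exceptions were Mir299a, Mir679 and Mir1193. The same count was not made over all tested genes, so it is not read as a trait of the cluster. Each mouse gave 1 library, so animals and library preparation cannot be told apart, and no difference has a replicate check. The median fold between the mice was 1.41 for members and 1.44 for all 324 genes at that level.

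At least 2-fold higher in mouse 2 were 5 of the 33 members, where the same held for 14.2% of the 324 genes. They were Mir410 (log2 ratio 1.79, interval 1.51 to 2.07), Mir376b (1.31, 1.02 to 1.61), Mir487b (1.26, 1.23 to 1.30), Mir376a (1.23, 1.15 to 1.31) and Mir496a (1.04, 0.85 to 1.24). Just under 2-fold were Mir381 (0.97) and Mir369 (0.95). None of the 33 was 2-fold higher in mouse 1, against 5.25% of the 324 genes, and the lowest ratio was that of Mir539 (−0.73, −1.14 to −0.32). The next lowest were Mir3072 (−0.57), Mir485 (−0.48) and Mir134 (−0.47). Between these, Mir411 (0.80), Mir380 (0.79), Mir154 (0.78), Mir329 (0.77) and Mir494 (0.77) were higher in mouse 2 by more than counting error. So were Mir376c (0.56), Mir300 (0.54), Mir495 (0.50), Mir543 and Mir377 (0.44 each) and Mir379 (0.29). Mir666 and Mir409 (−0.40 each), Mir668 (−0.33), Mir541 (−0.24) and Mir323 (−0.13) were higher in mouse 1. Mir412 (0.20) was a little higher in mouse 2, and Mir667 (−0.08) and Mir382 (−0.07) a little higher in mouse 1. Mir299a had a log2 ratio of 0.06. The median log2 ratio was 0.44 over the members, with 21 of 33 above 0, and 0.00 over all 324 genes, with 50.0% above 0. Without the members that share a run of 20 bases it was 0.20 over 29 genes. It was 0.52 for the 20 members upstream of Mirg and −0.07 for the 13 within it.

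**Figure D2:**
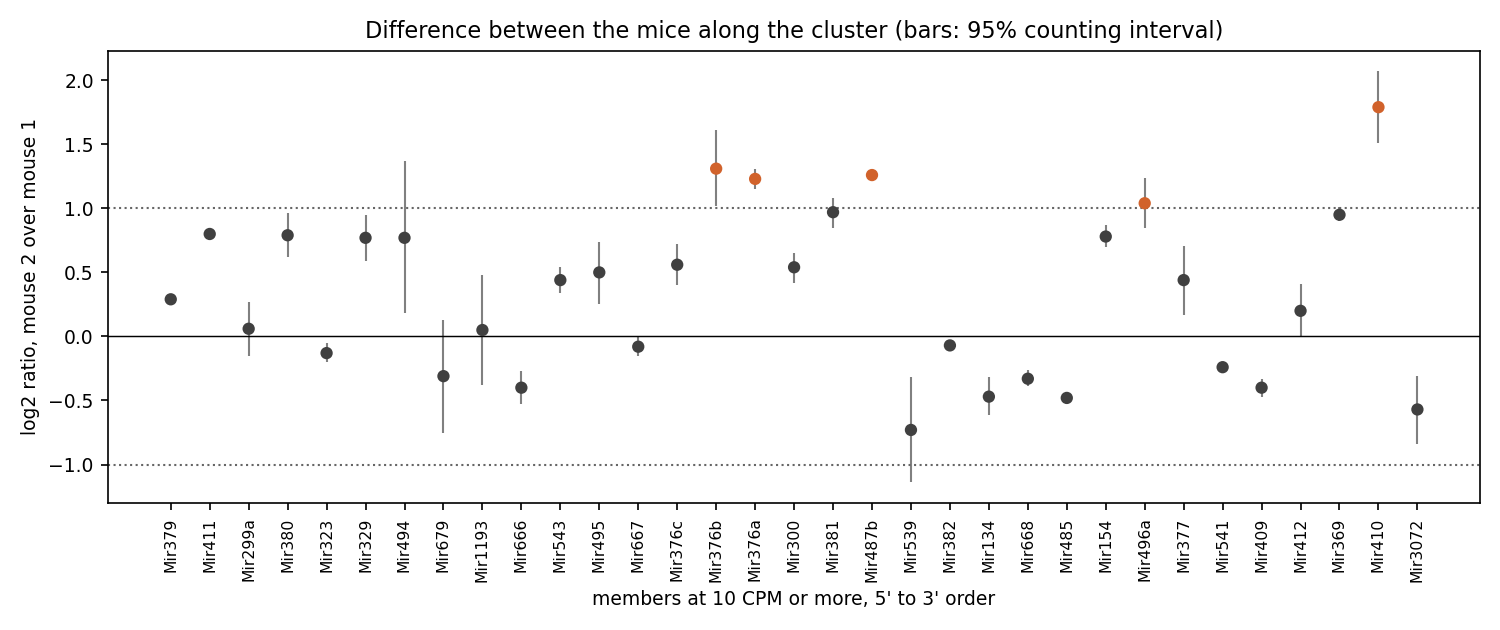
Log2 ratio of mouse 2 over mouse 1 with TMM library sizes for the 33 members at 10 CPM or more, in order along the strand; bars are 95% counting intervals and dotted lines mark 2-fold. The coloured points are the 5 genes at least 2-fold higher in mouse 2, and none lies at or below −1.

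Hairpin GC content moved with this difference. Members ranged from 29.1% GC (Mir376c) to 72.3% (Mir3072) with a median of 43.6%, while the median over all 2202 hairpins was 50.8%. Across the 33 members, rho between GC content and the log2 ratio was −0.54, and across the other 291 genes it was −0.26. The 19 members with a GC content below 43.6% had a median log2 ratio of 0.77, and the 14 at or above it had −0.22. Over all tested genes the same split gave 0.48 (74 genes) and −0.14 (250 genes). With the linear trend of all 324 genes removed, a fall of 0.23 for each 10 points of GC, the members' median was 0.07 and that of all genes −0.05. Then Mir410 (1.45) and Mir487b (1.08) were still at least 2-fold higher in mouse 2, against 11.7% of the 324 genes, and Mir539 (−1.23) was 2-fold higher in mouse 1, against 8.95%. Mir539 and Mir376a, at 33.8% and 32.4% GC, lay on opposite sides before and after. What lies behind the GC trend was not tested.

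**Figure D3:**
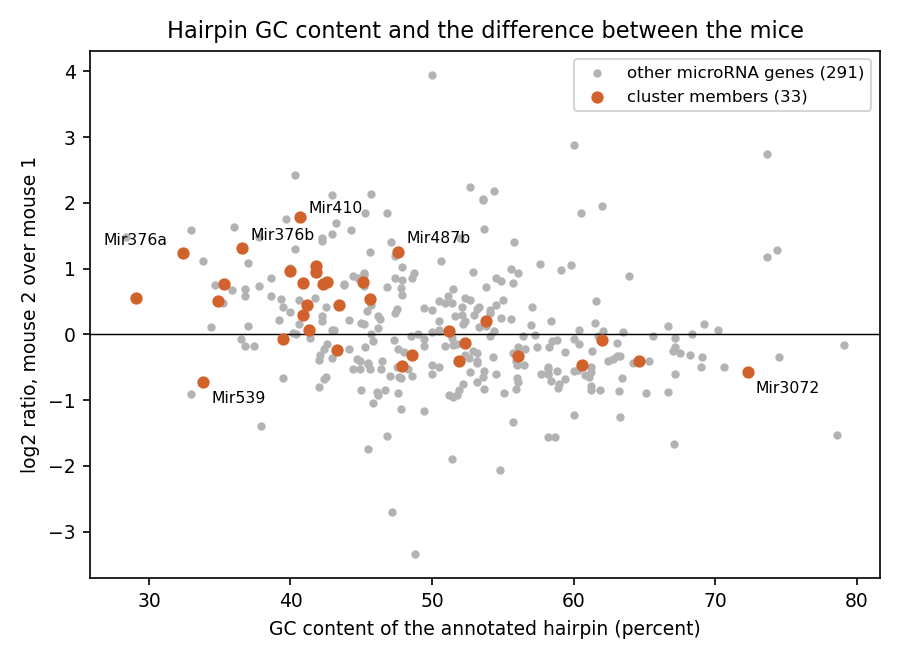
Log2 ratio of mouse 2 over mouse 1 against the GC content of the annotated hairpin for 324 genes with a mean of at least 10 CPM, with the 33 cluster members in colour. Members of low GC content lie mostly above 0 and those of high GC content below, with Mir539 as the low-GC member farthest below 0.

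Within the Dlk1-Dio3 domain the cluster had most of the genes but not most of the counts. The 20 other microRNA genes on the same strand fall into 6 opposite the paternally expressed retrotransposon-derived gene Rtl1, whose transcript their microRNAs are known to cleave, and 14 others near Meg3 and Rian. The cluster held 38.7% of the domain's counts in mouse 1 and 43.1% in mouse 2. The 6 genes opposite Rtl1, of which 5 were detected, held 47.0% and 46.6%, and the 14 others, of which 10 were detected, held 14.4% and 10.4%. The most abundant gene opposite Rtl1, Mir127, stood at 50032 ± 11142 CPM, above the top member of the cluster in both mice, and Mir433 and Mir434 stood at 16302 ± 3311 and 2257 ± 531 CPM. Of the other proximal genes Mir770 (9786 ± 563 CPM), Mir370 (3315 ± 1952 CPM) and Mir337 (1608 ± 244 CPM) were highest. The median log2 ratio of mouse 2 over mouse 1 was 0.41 over 5 tested genes opposite Rtl1 and −0.31 over 10 of the other proximal genes, beside 0.44 in the cluster. These differences between parts were not tested.

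**Figure D4:**
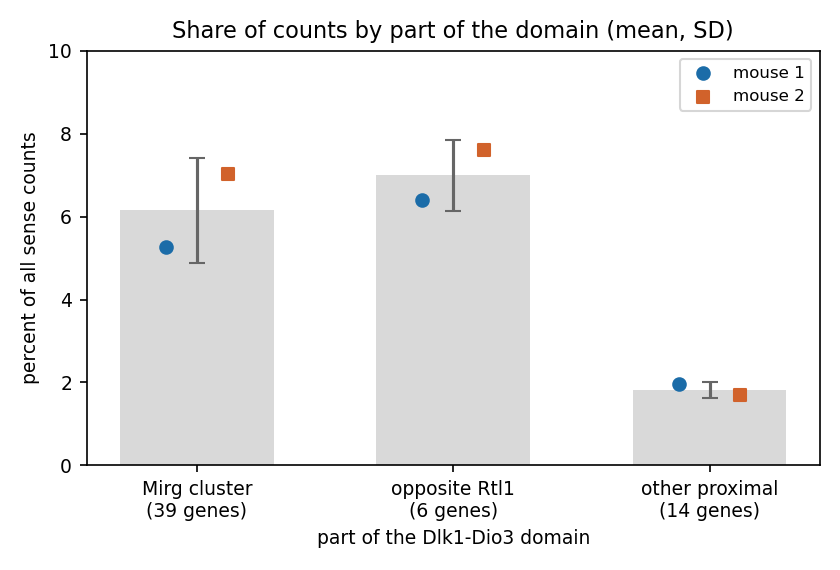
Share of all sense counts held by each part of the Dlk1-Dio3 domain, with bars for the mean, error bars for the SD of 2 mice, circles for mouse 1 and squares for mouse 2. The 39 genes of the cluster hold 5.26% and 7.03%, the 6 genes opposite Rtl1 hold 6.39% and 7.60%, and the 14 others hold 1.95% and 1.69%.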

How the data were processed

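MicroRNA-seq libraries of 2 mice were used, 1 library each. The authors deposited whole-number read counts per gene in 3 columns without a header, on mm10 and GENCODE M21 per the submitters' README notes; the aligner, counter and trimming are not given in the sources used here. Columns were read from their values as unstranded, sense and opposite-strand counts, and the sense column was used. The 4 lines that name no gene were left out; they hold unmapped reads (32.1% and 27.3% of all reads), reads at several places (34.6% and 37.2%) and reads in no gene (6.11% and 5.63%).

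CPM was computed over all sense counts. TMM factors (0.983 and 1.02) came from edgeR 4.0.16, and DESeq2 1.42.0 size factors were an alternative. Ratios between the mice used genes at 10 CPM or more on average, with 95% Clopper-Pearson intervals, and no p-value was computed, because there is 1 group with 1 library a mouse. The libraries differed by more than sampling noise (chi-square 544 per degree of freedom over 324 genes), so they were kept as 2 samples. Ratios and intervals were tested on simulated counts that held counting error alone, so that test says nothing of differences between animals or libraries. All members are named, and those at 100 CPM or more are given with their counts. Members and gene lists were chosen with earlier results of these data known. All 2202 gene IDs matched M21, and 36 of 39 hairpins matched RefSeq, all with the GENCODE sequence. Alternatives were the unstranded column, other scalings and thresholds, a GC correction, each mouse alone, and leaving out hairpins that share 20-base runs.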

Additional observations from a re-analysis of the deposited data

How the results depend on the processing

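The cluster's share of counts was 13.0% when the 10 most abundant genes, none of them a member, were left out of the total; it was 6.20% in the unstranded column, and 5.26% and 7.03% with either mouse alone. The number of detected members ran from 27 (100 CPM) to 35 (1 CPM). The Spearman correlation of gene order and level was 0.06 for members at 10 CPM or more, 0.13 without members that share a run of 20 bases, and 0.08 to 0.08 with 1 mouse left out. The Spearman correlation of levels between the mice was 0.966 for members at 10 CPM or more. The count of members at least 2-fold apart was 5 to 7 under the unstranded column, total counts, DESeq2 size factors and no filter on low counts, all higher in mouse 2; it was 3 with the GC trend removed and 3 without members that share a run, where Mir376b and Mir487b are left out by construction. The median log2 ratio of members was 0.48 in the unstranded column, 0.49 with total counts, 0.07 with the GC trend removed and 0.20 without members that share a run. Of the 29 levels at 100 CPM or more, 22 stayed within 1 SD of the mice in the unstranded column and 7 moved further. Among those that moved, Mir299a, Mir380, Mir376a and Mir409 were at 0 there. The rest were Mir323 (1525 to 1648 CPM), Mir667 (1537 to 1661 CPM) and Mir382 (7735 to 8358 CPM), whose SD over the mice was small. Without the 10 most abundant genes in the total all 29 moved further, since the total is smaller. With 1 mouse left out a level is that of the other mouse, which says nothing of stability. No paired analysis was possible because there is 1 group. Depth limits the genes near 0, and 2 mice limit all orders of level.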
